A study of Mus musculus with 2 samples.

Results

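Mir143, Mir199a-1, Mir199a-2, Mir199b and Mir214 are microRNA (miRNA) genes of smooth muscle, connective tissue and mesenchyme, and their levels are described here in the adrenal gland of newborn mice. The 5 genes were chosen by name, for the cell types they are known from, out of 2202 miRNA genes in each deposited table. Earlier results of these data were known when they were chosen. The data were small RNA sequencing libraries from adrenal gland tissue of B6CASTF1/J males, the offspring of C57BL/6J and CAST/EiJ parents, at an age of 4 days. There was 1 group of 2 libraries, biological replicate 1 from male 3 and replicate 2 from male 4, and both carried the same donor label. No treatment and no second group was labelled, so no conditions could be compared. All values describe levels in these libraries and how far the libraries differed. Any spread between the libraries may be technical.

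A miRNA is cut from a hairpin precursor and guides the silencing of messenger RNAs, chiefly through its seed, bases 2 to 8 of the mature strand. Mir143 lies beside Mir145a, and both are known from smooth muscle, where they favour the contractile state. Mir199a-2 and Mir214 are carried by the noncoding transcript Dnm3os, which is active in mesenchyme and required for growth of the skeleton. Mir199a-1 and Mir199b are paralogs of Mir199a-2. In the adrenal gland such cells form the capsule, the vessel walls and the supporting stroma around the steroid-producing cortex and the chromaffin cells of the medulla. The RNA came from tissue of the gland, so fewer cells of a type and less RNA per cell cannot be told apart.

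The mature strands decide which of these genes a read can be given to, so they are shown first, with the seed in capitals. The RefSeq table (build GRCm38.p6) held 4 of the 5 genes, all but Mir143, at the same coordinates as the annotation used for the counts. Both arms of the Mir199a genes and of Mir214 were listed, and the 3′ arm of Mir199b.
miR-199a-5p, from Mir199a-1 and Mir199a-2: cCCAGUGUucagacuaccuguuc
miR-199a-3p, from the same genes, and miR-199b-3p, from Mir199b: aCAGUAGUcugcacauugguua
miR-214-5p: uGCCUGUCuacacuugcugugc
miR-214-3p: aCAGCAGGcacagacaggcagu
This search covered the precursors of the table and not the rest of the genome, and it did not include Mir143. All sequences shown are those of the reference build, and differences between the alleles of the parent strains were not examined. The first strand was found in 1 other precursor and the second in 2 others of the same table, which held 1005 precursors, whereas neither strand of miR-214 was found in any other. The 4 seeds differed from each other. The seed of miR-214-3p was shared with miR-761, whose gene Mir761 had 0 counts in both libraries. No other gene in the table shared a seed with these strands.

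The 4 precursors are shown with capitals for every base inside a run of at least 18 bases that another precursor also holds. They make visible which reads could not be placed at a single gene.
Mir199a-1: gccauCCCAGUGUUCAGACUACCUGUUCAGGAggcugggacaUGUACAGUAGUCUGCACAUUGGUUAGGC
Mir199a-2: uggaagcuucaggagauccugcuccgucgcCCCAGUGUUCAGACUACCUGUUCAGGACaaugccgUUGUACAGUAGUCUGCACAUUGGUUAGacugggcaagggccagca
Mir199b: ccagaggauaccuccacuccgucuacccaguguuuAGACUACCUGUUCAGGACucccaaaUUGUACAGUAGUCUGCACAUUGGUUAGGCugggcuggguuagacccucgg
Mir214: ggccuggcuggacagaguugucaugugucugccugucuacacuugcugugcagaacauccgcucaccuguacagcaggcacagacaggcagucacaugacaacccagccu
Of the bases of Mir199a-1, 55 of 70 lay in such runs, against 55 of 110 for Mir199a-2, 47 of 110 for Mir199b and 0 of 110 for Mir214. The run around miR-199a-5p that Mir199a-1 and Mir199a-2 share was 27 bases long, the 23 bases of the mature strand and 4 bases after it. Around the 3′ strand the shared run was 26 bases between these genes, 27 bases between Mir199a-2 and Mir199b, and 28 bases between Mir199a-1 and Mir199b. A read confined to such a run fits more than 1 gene. The sequenced size range was under 30 nucleotides, per the labels.

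The 5′ arm of Mir199b was the exception among the Mir199 arms. Lined up with miR-199a-5p, the stretch of Mir199b at bases 26 to 48 of its precursor (chromosome 2, 32318485 to 32318507) carried a single substitution, C10U, counted from 1 at the 5′ end of miR-199a-5p with the base of miR-199a-5p first. It is shown with the changed base in capitals.
Mir199b, 5′ arm: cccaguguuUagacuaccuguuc
This stretch, as read from the reference build, occurred in no other precursor of the table. The change lies outside the seed, which is the same as that of miR-199a-5p.

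**Figure D1:**
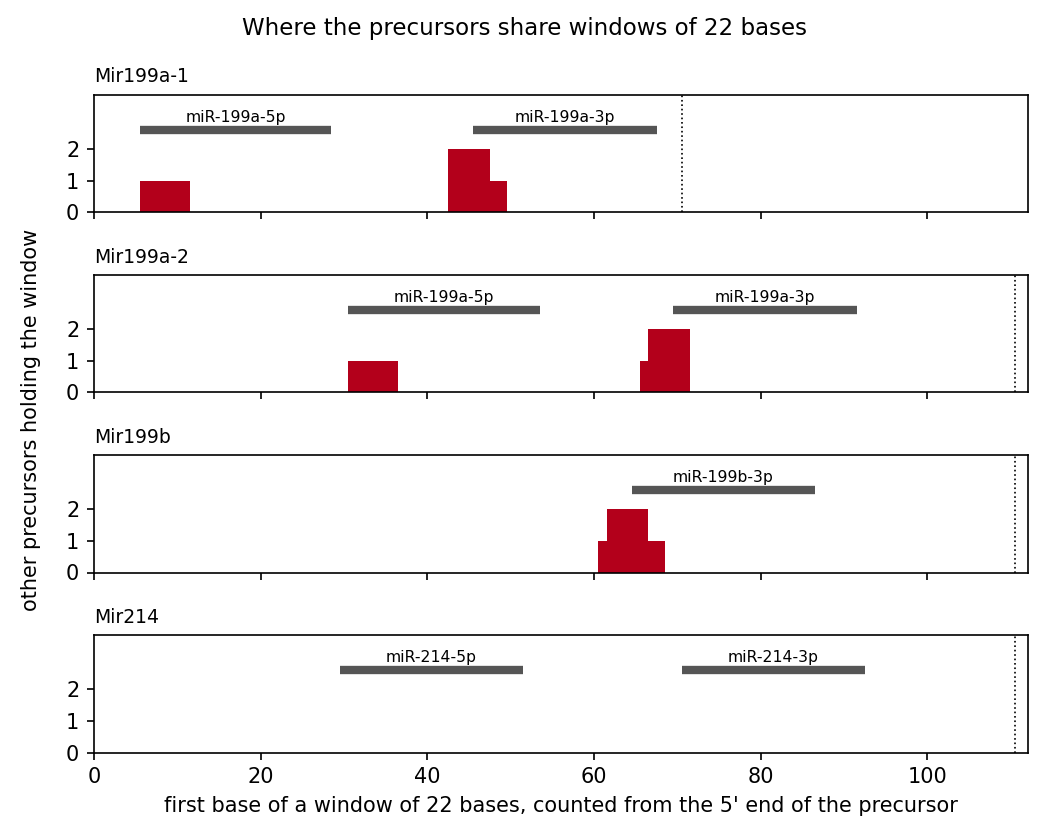
Number of other precursors in the RefSeq table that hold a window of 22 bases (y axis), by the first base of that window in Mir199a-1, Mir199a-2, Mir199b and Mir214 (x axis, bases from the 5′ end; grey bars: listed mature strands; dotted line: end of the precursor). Windows that start with a miR-199 strand listed in the table are held by 1 or 2 other precursors, and no window of Mir214 is.

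The deposited tables give reads with several matching loci to no gene, in a row of their own. Such reads numbered 3176275 in replicate 1, or 27.0% of its reads, and 1684373 in replicate 2, or 25.7%. How many of them were miR-199 reads was not analysed here. The counts of Mir199a-1, Mir199a-2 and Mir199b are therefore counts of reads that fit a single one of these genes, and they can lie far below the amount of miR-199 in the tissue. All counts below are of reads on the sense strand. They were scaled to a total of 1000000 sense-strand miRNA counts per library (CPM). The unscaled totals were 3961630 in replicate 1 and 1686822 in replicate 2, the latter giving wider counting error. A count belongs to a precursor gene, so its 5′ and 3′ arms were not told apart.

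The 5 genes together held 4.39% of the miRNA counts in replicate 1 and 4.13% in replicate 2, a mean of 4.26% ± 0.183 (SD, n = 2). Mir143 gave nearly all of this, with 94.7% of the summed counts in replicate 1 and 91.8% in replicate 2. Mir214 gave 4.97% and 7.87%, and the 3 Mir199 genes gave the small rest. The order was Mir143, Mir214, Mir199b, Mir199a-2 and Mir199a-1 in both libraries, and it was the same when the level was divided by the annotated length of 63 to 110 bases. No neighbours in this order overlapped in level between the libraries. The places of the Mir199 genes rest on reads that fit a single gene.

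Mir143, whose product restrains factors that keep smooth muscle cells immature, had 164672 counts in replicate 1 and 63998 in replicate 2. Its level was 41567 CPM (95% exact interval 41370 to 41764) and 37940 CPM (37652 to 38229), a mean of 39753 ± 2565 CPM (SD, n = 2). It was the gene with rank 7 by level in each library. Replicate 2 lay a little below replicate 1, with a log2 ratio of -0.13 on the CPM + 0.5 scale.

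Mir214, which in muscle lineages represses the chromatin enzyme Ezh2, had 8639 and 5484 counts. Its level was 2181 CPM (2135 to 2227) in replicate 1 and 3251 CPM (3166 to 3338) in replicate 2, a mean of 2716 ± 757 CPM (SD, n = 2), at rank 56 and rank 48. Replicate 2 was 1.49-fold above replicate 1 (95% exact interval 1.44 to 1.54), the widest gap between libraries among the 4 members with at least 10 counts in a library. Intervals here cover counting error only. They treat reads as independent molecules, which reads are not, so they can be too narrow. The same holds for the exact test below.

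Mir199b had 447 and 139 counts. Its level was 113 CPM (103 to 124) in replicate 1 and 82.4 CPM (69.3 to 97.3) in replicate 2, a mean of 97.6 ± 21.5 CPM (SD, n = 2). Replicate 2 was the lower one, and the intervals did not overlap. The reads that can be given to this gene include those of its 5′ arm with the substitution C10U, while its 3′ strand is that of the other Mir199 genes.

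Mir199a-2 had 199 and 89 counts, or 50.2 CPM (43.5 to 57.7) and 52.8 CPM (42.4 to 64.9), a mean of 51.5 ± 1.79 CPM (SD, n = 2). The libraries lay within each other's counting error. Mir199a-1 had 8 and 5 counts, or 2.02 CPM (0.872 to 3.98) and 2.96 CPM (0.962 to 6.92). A count of 0 was taken to allow up to 3 counts, or 0.757 CPM in replicate 1 and 1.78 CPM in replicate 2, a limit set apart from the exact intervals. Both counts lie above it. Both mature strands of these genes occur in another precursor. Summed over the 3 Mir199 genes the counts were 654 and 233, or 165 and 138 CPM.

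**Figure D2:**
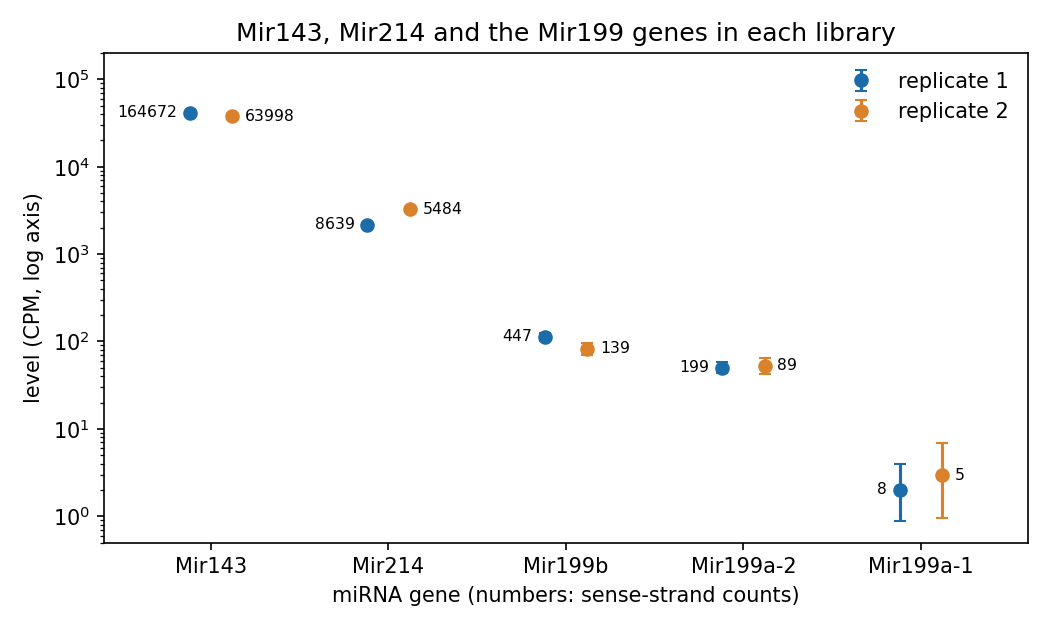
Level in CPM (log axis) of the 5 genes (x axis) in replicate 1 and replicate 2, with exact 95% intervals for counting error and the counts printed beside the points. Mir143 lies at 41567 and 37940 CPM and Mir199a-1 at 2.02 and 2.96 CPM, and the order of the genes is the same in both libraries.

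The libraries were set against each other over all genes to see how the members' differences compare with the rest. Each gene with at least 10 counts in a library was tested with a two-sided exact binomial test, in which the library totals set the share of its counts due to each library. It was called with a Benjamini-Hochberg adjusted p under 0.05 and a log2 ratio above 1 or below -1. This compares 2 libraries and not conditions, and a single gene's difference has no replicate check. None of the 4 members tested was called, against 18.3% of 404 tested genes (74 genes, 39 higher and 35 lower in replicate 2). Mir199a-1 was not tested. With no bound on the size of the ratio 3 of the 4 passed, against 62.1% of tested genes (251 of 404). These were Mir143 (adjusted p = 8.71e-86, exact test), Mir214 (log2 ratio 0.58, adjusted p = 2.54e-113, exact test) and Mir199b (log2 ratio -0.45, adjusted p = 0.0019, exact test). Mir199a-2 did not pass (log2 ratio 0.070, adjusted p = 0.774, exact test).

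In size the members' differences were middling to small. The median size of the log2 ratio over all tested genes was 0.50. Of the 404 genes, 170 had a wider difference than Mir214, 224 a wider one than Mir199b, 335 a wider one than Mir143 and 368 a wider one than Mir199a-2. The median log2 ratio of the 4 tested members was -0.031, against -0.054 over all tested genes. TMM scaling, which centres the bulk of the genes, moved log2 ratios by -0.107, and the ratio of Mir199a-2 then was -0.036, on the other side of 0.

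**Figure D3:**
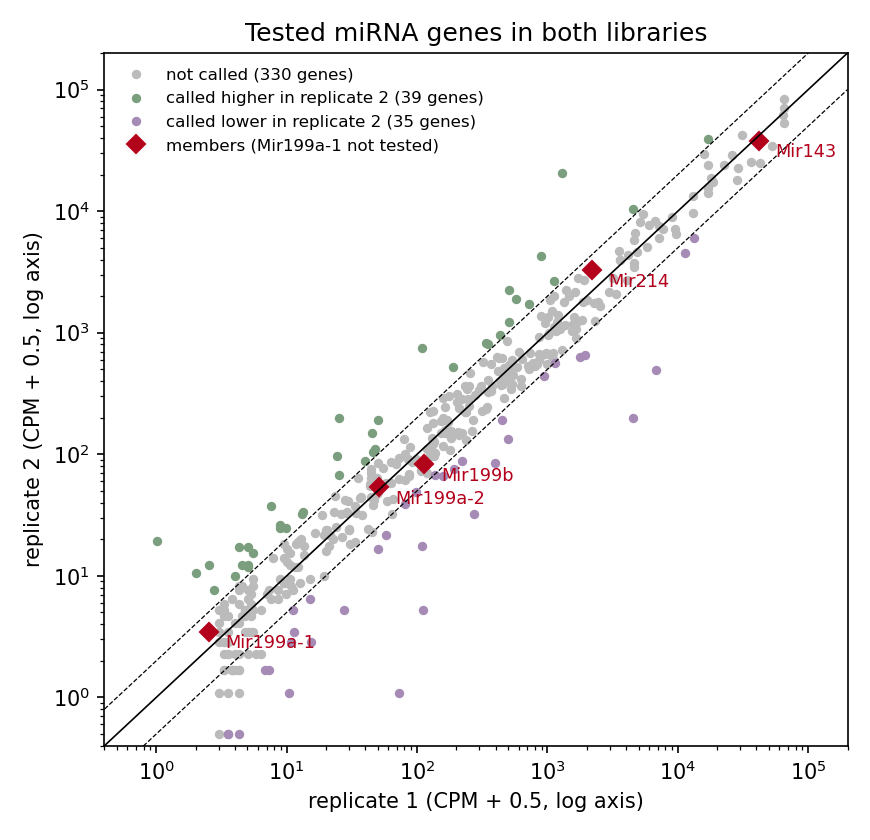
Level of each of the 404 tested genes, and of Mir199a-1, which was not tested, in replicate 1 (x axis) and replicate 2 (y axis), as CPM + 0.5 on log axes, with a solid line of equal level and dashed lines at a 2-fold difference. The 5 genes lie inside the dashed lines, while 39 genes were called higher and 35 lower in replicate 2.

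Ratios between genes of 1 library do not depend on how the library was scaled. Mir199a-2 lies at chromosome 1, 162217814 to 162217923, and Mir214 at 162223368 to 162223477 on the same strand (build mm10), with 5444 bases between them. Both overlap annotated exons of Dnm3os (162217623 to 162225550), Mir199a-2 in 5 and Mir214 in 3 of its 6 transcripts, and lie on the strand opposite to an intron of the dynamin gene Dnm3. Mir214 had 43.4 counts per count of Mir199a-2 in replicate 1 (95% exact interval 37.7 to 50.2) and 61.6 in replicate 2 (49.98 to 76.9). The intervals just overlapped, which does not show that the ratios were equal, and the ratios were not tested against each other. Both counts hold only reads that fit a single locus, which for Mir199a-2 leaves out reads confined to the runs it shares with other precursors.

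The other Mir199 genes lie on the strand opposite to introns of related dynamin genes. Mir199a-1 lies at chromosome 9, 21496495 to 21496564, opposite to Dnm2, and Mir199b at chromosome 2, 32318460 to 32318569, opposite to Dnm1. In neither case did an exon of an annotated transcript of the dynamin gene overlap. Mir199b had 2.25 counts per count of Mir199a-2 in replicate 1 (1.90 to 2.67) and 1.56 in replicate 2 (1.19 to 2.06). Mir199a-2 had 24.9 counts per count of Mir199a-1 in replicate 1 (12.4 to 58.4) and 17.8 in replicate 2 (7.35 to 56.2), with intervals too wide to tell the libraries apart. Both ratios compare reads that fit a single gene, and not the amounts made from each gene. Bases outside the shared runs numbered 63 in Mir199b, 55 in Mir199a-2 and 15 in Mir199a-1. The predicted miRNA gene Gm23363, 116 bases from Mir199b on its strand, had 0 and 2 counts.

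Mir143 lies at chromosome 18, 61649196 to 61649258, between annotated genes. Mir145a lies 1301 bases away on the same strand and had 2835 and 851 counts, or 716 and 504 CPM. In the annotation used, the noncoding gene Carmn ends 366 bases before Mir143 on its strand. The noncoding gene Bvht lies 1723 bases away on the other strand. Whether a transcript of Carmn runs on through Mir143 and Mir145a was not tested. Mir143 had 58.1 counts per count of Mir145a in replicate 1 (56.0 to 60.3) and 75.2 in replicate 2 (70.3 to 80.6). Mir143 was thus far above its neighbour in both libraries. Mir143 had 19.1 counts per count of Mir214 in replicate 1 (18.7 to 19.5) and 11.7 in replicate 2 (11.4 to 12.0). In both pairs the intervals of the libraries were apart.

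**Figure D4:**
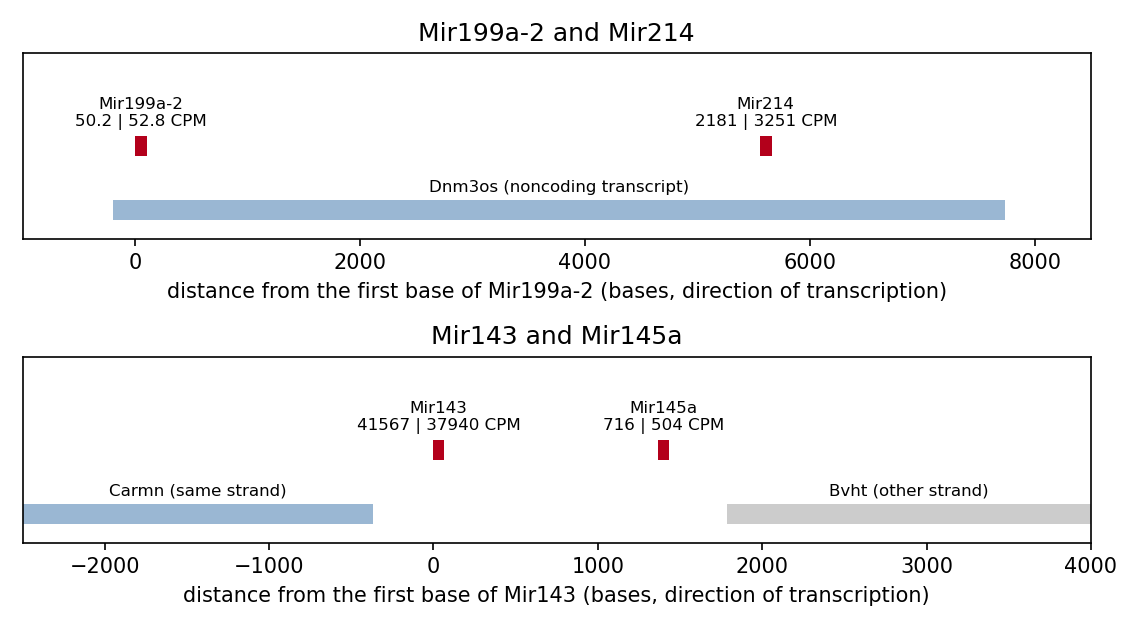
Maps of Mir199a-2 with Mir214 and of Mir143 with Mir145a, drawn to scale as distance in bases from the first base of Mir199a-2 and of Mir143 in the direction of transcription, with the levels in replicate 1 and replicate 2 above each miRNA gene. The miRNA genes of the upper map lie within Dnm3os, and those of the lower map lie beyond the annotated end of Carmn. Carmn and Bvht go on past the edges, and Dnm3, opposite to Dnm3os, is not drawn.

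**Figure D5:**
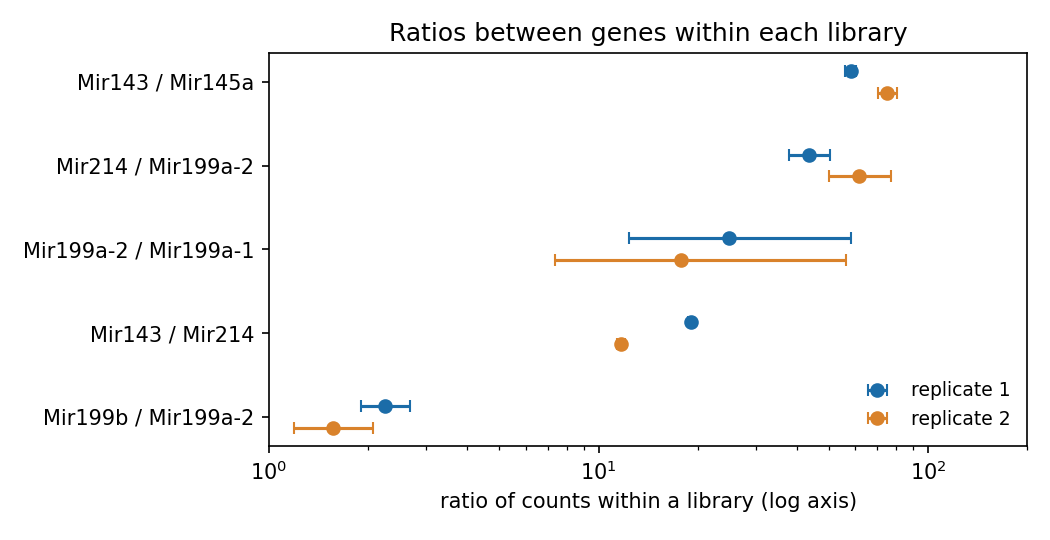
Ratio of the counts of 2 genes within a library (x axis, log axis) for 5 pairs of genes (y axis), in replicate 1 and replicate 2, with exact 95% intervals for counting error. The ratio of Mir143 to Mir145a was 58.1 and 75.2 and that of Mir143 to Mir214 was 19.1 and 11.7.

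Strand made little difference for these genes. The strand opposite to Mir199b had 2 counts and that opposite to Mir214 had 1 count in replicate 1, and all others had 0, none of them above the 3 counts that a count of 0 allows. None of the 5 overlaps another miRNA gene, so the count column for either strand held the same counts apart from these 3 reads. Its smaller library totals raised the scaled levels.

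Genes nearest to each member were sought over log2(CPM + 0.5) in the 2 libraries, which measures a like level and not a like control. Nearest to Mir143 were the X-linked Mir322 (52879 and 34419 CPM) and Mir375 (31129 and 42377 CPM), a miRNA of endocrine cells. Nearest to Mir214 was Mir140 of cartilage and other mesenchyme, with 1919 and 2716 CPM, and then Mir674. Nearest to Mir199b were Mir3072 and Mir292, to Mir199a-2 Mir449a and Mir3099, and to Mir199a-1 Mir8111 and Mir3088.

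Other miRNAs known from smooth muscle, fibroblasts, cartilage or the control of matrix formed a list of 13 genes. Of these, 12 were tested, 3 were higher in replicate 2, none was lower and 9 were not called, where 18.3% of all tested genes (74 of 404) were called. The list had a median log2 ratio of 0.54 against -0.054 over all tested genes. The genes called were Mir21a, which is abundant in many cell types (17010 and 39571 CPM), Mir455 of cartilage (716 and 1734 CPM) and Mir29b-1 of the matrix-controlling miR-29 family (33 and 43 counts). For every gene of the list, reads that fit several loci were not counted. Mir22 was second in level after Mir21a, with 5357 and 9395 CPM, and Mir145b had 0 counts in both libraries. Summed, the list held 28022 CPM in replicate 1 and 56124 CPM in replicate 2, of which Mir21a alone held 17010 and 39571 CPM. The 5 genes held 43913 and 41329 CPM. Mir145a was not called and had a log2 ratio of -0.50, on the same side of 0 as that of Mir143.

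Endothelial cells, which share vessel walls with smooth muscle, are marked by Mir126a, and Mir126b lies on its other strand. Neither was called, and together they held 6.52% and 8.34% of the counts. Per count of the 5 genes the endothelial genes had 1.49 counts in replicate 1 (95% exact interval 1.48 to 1.49) and 2.02 in replicate 2 (2.00 to 2.04). This ratio was higher in replicate 2 by more than counting error, in 2 libraries. The counts of the 5 genes leave out miR-199 reads that fit several loci. The ratio is therefore one of counted reads, and not of the amounts of miRNA in the tissue.

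Markers of other cells are given beside the 18.3% of all tested genes that were called. Each list is short and was chosen with earlier results of these data known, so its share called is a description and not a test. The share called was 1 of 4 tested genes in the neuroendocrine and leukocyte lists and 2 of 7 in the epithelial list. It was 2 of 3 in the erythroid list and 3 of 4 in the striated muscle list, and in the kidney list 2 were higher and 2 lower of 5. The 1 liver gene was called. Reads that fit several loci are counted for none of these genes. Neuroendocrine miRNAs, led by Mir375 and Mir7b, held 3.63% and 4.67% of counts, with 1 of 4 called, Mir7-2 lower in replicate 2. Mir122 of liver was at 1299 and 20602 CPM, called higher in replicate 2. Of the 3 erythroid genes found in the annotation, Mir451a and Mir144 were lower and Mir486 was not called (7248 and 595 CPM in all). Of 10 striated muscle genes 4 were tested, and Mir206, Mir499 (28 and 63 counts) and Mir208b (14 and 16 counts) were higher in replicate 2. Mir206 gave 1130 and 2646 of the list's 1146 and 2699 CPM. Mir133a-2 had 0 counts in both libraries. Of 4 leukocyte genes tested, led by Mir142 and Mir223, Mir223 was higher (858 and 1338 CPM in all). Of 7 epithelial genes tested, led in mean level by Mir203 and Mir429, Mir200b and Mir200c were lower (1318 and 936 CPM in all). Of 5 kidney genes Mir192 and Mir194-2 were called higher in replicate 2, Mir194-1 and Mir215 were called lower, and Mir204 was not called (241 and 379 CPM in all). The part of such cells in the levels of Mir143, Mir214 and the Mir199 genes was not tested.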

How the data were processed

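Small RNA from adrenal glands of 2 males was sequenced, with 1 library and 1 table each. The authors deposited whole-number read counts per miRNA gene on build mm10 with annotation M21, per the file lists beside the tables. The aligner, trimming and filters are not given in the sources used here. A table held 3 columns of counts, 1 for either strand and 1 for each strand, beside 4 rows for reads given to no gene. The column called sense strand was the single-strand column with more counts. Those rows (66.3% and 74.3% of reads) were left out of totals.

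Symbols and positions came from GENCODE M21, where all 2202 identifiers matched, and sequences from RefSeq. Levels are CPM with exact Clopper-Pearson 95% intervals. The exact binomial test ran over all genes with at least 10 counts in a library and used log2 ratios of CPM + 0.5. It was tried on simulated counts that held counting error only, so the trial did not cover spread between animals or libraries. edgeR's quasi-likelihood test could not be fitted with 1 library against 1. Alternatives were TMM (edgeR 4.0.16) and DESeq2 1.42.0 size factors, scaling by all reads, other count limits, ratio bounds and added CPM, and the either-strand column. R 4.3.3, Python 3.11.15 and scipy 1.17.1 were used.

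The members and the 9 lists beside them were chosen with earlier results of these data known. Named were the 5 members, the 2 genes nearest to each, genes within 10 kb, hosts, and from each list the 2 highest by mean level and those called. Mir145b, Mir133a-2, Mir486 and Mir761 were chosen after their values were seen.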

Additional observations from a re-analysis of the deposited data

How the results depend on the processing

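No paired analysis was possible because the series held a single group. The summed level of the 5 genes was 42621 ± 1827 CPM (SD, n = 2), and 43913 and 41329 CPM with replicate 2 or replicate 1 left out, which says nothing of stability with 2 libraries. It was 12706 when scaled by all reads of the library, since that total includes reads given to no gene, and 48665 CPM in the either-strand column, whose totals are smaller. TMM and DESeq2 scaling left the mean near 42698 CPM and raised the SD to 4066 CPM under TMM. Genes called numbered 132 with a log2 ratio beyond 0.58 and 251 at any size, against 74, and 57 with CPM + 5. No member was called under any alternative but the one at any size, where Mir143, Mir199b and Mir214 were. Mir214 missed the bound of 0.58 only narrowly, with a log2 ratio of 0.576. The log2 ratio of Mir199a-2 changed sign, from 0.070 to -0.036 under TMM and DESeq2 scaling and to -0.31 when scaled by all reads. The ratios of Mir143, Mir214 and Mir199b kept their sign under all 5 alternatives tried for them, with that of Mir214 between 0.19 and 0.59. Depth limited Mir199a-1, with 8 and 5 counts, the most.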
